A study of Mus musculus with 4 samples.

Results

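The fibrillar collagen genes encode the chains of the collagens that assemble into banded fibrils. 10 of them were followed here among the 56748 genes of the deposited count table. The rule was by gene symbol, with no measured value in it, but earlier results of these data were known at the choice. The genes were Col1a1 and Col1a2 (type I), Col3a1 (type III), and Col5a1, Col5a2 and Col5a3 (type V). The others were Col11a1 and Col11a2 (type XI), Col24a1 (type XXIV) and Col27a1 (type XXVII). Bulk RNA sequencing had been carried out on lungs carrying metastases of 4T1, a mouse TNBC cell line, here a derivative that expresses firefly luciferase. The cells were given through the tail vein to female BALB/cJ mice at 7 weeks of age, so both groups shared the tumour, the strain and the route. The saline group (2 libraries) received saline, for which the labels also write PBS control. The cmLumiOpto/PARPi group (2 libraries) received an exosome-associated AAV carrying cmLumiOpto and tagged with an antibody to CD276. It also received the substrate ViviRen, and olaparib, a PARP inhibitor, at a dose of 50 mg/kg. The treatment period was 3 weeks, and per the study the vector was injected on separate days and not throughout. In cmLumiOpto a luciferase lights a cation channel in the inner mitochondrial membrane, under a cfos promoter. The vector, ViviRen and olaparib were given together, so their parts in a difference from saline cannot be told apart in these 4 libraries. The labels call the material tumour cells harvested from lungs and the study's methods call it lung tissue with metastasis. In either case fewer cells of one type and less RNA per cell cannot be told apart in bulk RNA.

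Fibrillar collagens are made as procollagen. Chains are hydroxylated and wound into a helix in the endoplasmic reticulum, secreted, trimmed of their propeptides and cross-linked into fibrils by lysyl oxidases. Types I and III make up the bulk of the fibrils of lung and of tumour stroma, where fibroblasts are their main source, while types V and XI are minor chains that start fibrils and limit their width. Types XXIV and XXVII are the most diverged members and are known mainly from forming bone and from cartilage.

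The helix is visible in the gene sequences, and the following exons are shown because they hold the feature that unites the 10 genes. Each helical repeat is glycine followed by a pair of other residues, so a codon GGN (glycine, N being any base) recurs with 2 other codons after it. In the longest coding transcript of GENCODE M21 (GRCm38), the longest unbroken run of such repeats was 337 to 344 repeats long in the 8 genes of types I, III, V and XI. It was 216 repeats in Col24a1 and 217 in Col27a1. A run of 100 repeats or more was found in 15 of 21771 protein-coding genes. The genes also held 21 to 33 coding exons of exactly 54 bases, or 6 helical repeats, whereas 0.675% of all 199148 coding exons had that length and 18 of 21901 genes had 10 or more of them. For 5 of the genes, chosen to span high and low levels, the first such exon inside the run is given, read on the coding strand of GRCm38 and with the glycine codons in capitals.
Col1a1, exon 8, chr11:94939904-94939957 (+): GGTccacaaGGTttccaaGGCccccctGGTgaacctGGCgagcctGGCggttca
Col1a2, exon 8, chr6:4515481-4515534 (+): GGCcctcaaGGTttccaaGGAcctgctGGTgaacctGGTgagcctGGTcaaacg
Col3a1, exon 6, chr1:45325360-45325413 (+): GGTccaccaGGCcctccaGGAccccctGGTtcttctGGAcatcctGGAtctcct
Col11a1, exon 15, chr3:114108281-114108334 (+): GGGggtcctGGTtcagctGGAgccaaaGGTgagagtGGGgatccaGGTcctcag
Col27a1, exon 7, chr4:63245069-63245122 (+): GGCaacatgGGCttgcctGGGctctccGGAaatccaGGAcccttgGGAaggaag

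The repeat of a codon GGN, with capitals at the same places in each line, was thus shared by chains that differed widely in their level. Col1a1 lies at chr11:94936224-94953042 on GRCm38, Col1a2 at chr6:4504814-4541544, Col11a1 at chr3:114030540-114220718 and Col27a1 at chr4:63214004-63334991. Col3a1 (chr1:45311538-45349706) and Col5a2 (chr1:45374321-45503282) are neighbours that point at each other, with 24614 bases between their ends. Other annotated genes covered 1.44% of the exon bases of Col3a1 and 2.50% of those of Col5a1, and none of those of the other 8 genes.

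Promoters are shown for Col1a2, lower after treatment, for Col11a1, which had the most negative log2 fold change of the 10 genes, and for Col27a1, whose groups overlapped. RefSeq promoter sequences (GRCm38.p6) matched 8 of the 10 genes, Col1a1 and Col5a2 being without a match. Each line gives the 250 bases before the start in RefSeq, on the strand of the gene. For Col1a2 and Col27a1 that start lies inside the gene as GENCODE M21 draws it, downstream of its first base. Capitals mark the CCAAT box (on the other strand written ATTGG), the GC box GGGCGG (on the other strand CCGCCC) and the TATA box TATAAA (on the other strand TTTATA).
Col1a2, chr6:4505368-4505617 (+): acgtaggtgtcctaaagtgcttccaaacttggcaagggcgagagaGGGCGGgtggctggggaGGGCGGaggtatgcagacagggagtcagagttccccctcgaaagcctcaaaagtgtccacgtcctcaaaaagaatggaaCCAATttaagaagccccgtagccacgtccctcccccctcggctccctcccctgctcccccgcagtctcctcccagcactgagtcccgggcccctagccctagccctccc
Col11a1, chr3:114030290-114030539 (+): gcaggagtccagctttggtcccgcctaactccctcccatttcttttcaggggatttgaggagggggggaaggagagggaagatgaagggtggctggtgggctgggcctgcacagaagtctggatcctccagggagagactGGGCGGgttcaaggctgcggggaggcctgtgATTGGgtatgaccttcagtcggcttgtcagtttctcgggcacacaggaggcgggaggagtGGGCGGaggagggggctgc
Col27a1, chr4:63215162-63215411 (+): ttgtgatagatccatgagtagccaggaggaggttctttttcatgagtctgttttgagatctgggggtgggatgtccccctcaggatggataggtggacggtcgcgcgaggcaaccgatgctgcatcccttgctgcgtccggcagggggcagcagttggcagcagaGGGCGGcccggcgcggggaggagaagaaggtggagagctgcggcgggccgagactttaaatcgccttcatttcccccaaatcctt

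CCAAT stood in Col1a2, Col5a3 and Col11a1, the GC box, on either strand, in Col1a2, Col5a1, Col5a3, Col11a1, Col11a2 and Col27a1, and TATAAA in Col3a1 and Col11a2. Col24a1 held none of these letters in the window. Among 32851 promoters of the same length the shares were 33.8% for CCAAT, 32.7% for the GC box and 12.4% for TATAAA. Such a match is a description of the letters and not of a bound site.

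The gene counts summed to between 15263375 and 16755228 per library. A gene's level is given in CPM, the usual scaling of counts to a common library size, here with TMM factors, and 3 counts, taken as the smallest detectable level, equalled 0.179 to 0.197 CPM. Each of the 10 genes passed edgeR's filter on low counts, as did 15167 of the 56748 genes. In the saline libraries the 10 genes held 0.536% and 0.366% of all counts, and in the cmLumiOpto/PARPi libraries 0.174% and 0.193%. The share was thus lower in both treated libraries than in either saline library, with a mean of 0.451% ± 0.120 (SD, n = 2) against 0.184% ± 0.0130, a ratio of 0.407. An exact two-sided permutation test gave p = 0.333, which is the smallest value that 2 libraries against 2 allow.

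Of the 10 genes, 7 were lower in both cmLumiOpto/PARPi libraries than in either saline library, against 27.8% of all tested genes, and 3 overlapped. In either direction 55.2% of all tested genes did not overlap. Of the same 10 genes, 7 had a log2 fold change below -1, against 2.52% of the tested genes. By edgeR's quasi-likelihood test none of them had an adjusted p under 0.05, and 0% of the tested genes did. Before adjustment 7 of the 10 had a p under 0.05, each lower after treatment, against 12% of the tested genes lower and 21.2% in either direction. DESeq2's Wald test called 7 of the 10 at an adjusted p under 0.05, lower after treatment, against 4.09% of the genes it tested. The edgeR fit with the replicate number as a block also called 7, against 7.05% lower in that fit, or 5.15% when a length offset was added. Without the filter on low counts 7 were called, against 4.19% of the genes then tested.

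**Figure D1:**
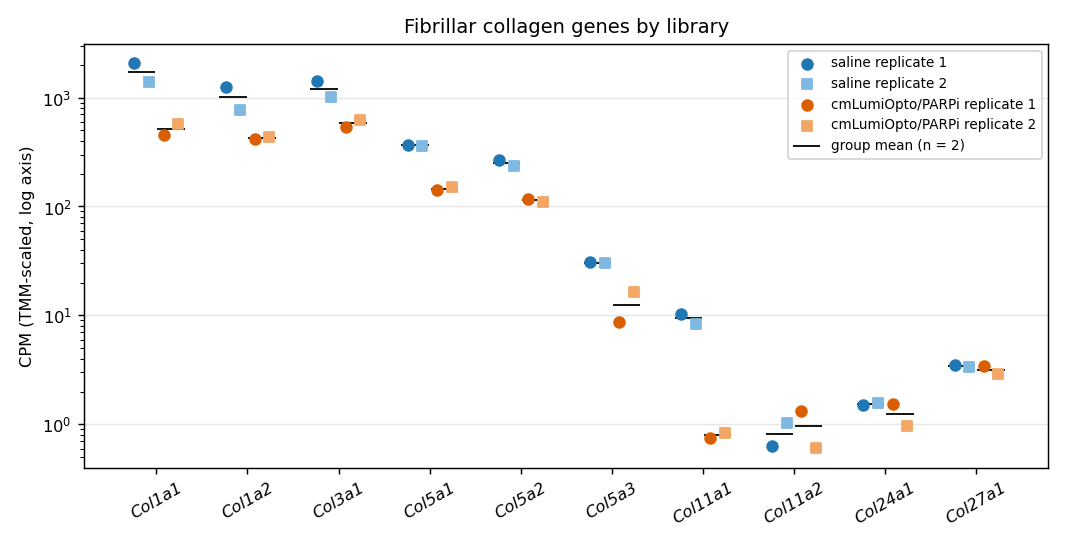
CPM of the 10 fibrillar collagen genes in each of the 4 libraries, on a log axis, with a line at each group mean (n = 2). From Col1a1 to Col11a1 the orange treated points lie under the blue saline points, and in Col11a2, Col24a1 and Col27a1 they overlap.

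Type I collagen is the main tensile protein of connective tissue. Col1a1, its alpha 1 chain, stood at 2064 and 1377 CPM in the saline libraries and at 455 and 572 CPM in the cmLumiOpto/PARPi libraries. Both treated libraries lay far below both saline libraries, and treated levels averaged 29.8% of the saline mean. The log2 fold change was -1.74 (SE 0.26, adjusted p = 0.138). Col1a2, the alpha 2 chain, stood at 1250 and 775 CPM in saline and at 417 and 438 CPM after treatment. The groups did not overlap, although the saline libraries differed from each other 1.61-fold, and the log2 fold change was -1.24 (SE 0.25, adjusted p = 0.138). In the type III gene Col3a1, whose chains form fibrils with type I in lung and vessels, the levels were 1407 and 1011 CPM in saline and 535 and 623 CPM after treatment. Its log2 fold change was -1.06 (SE 0.22, adjusted p = 0.138), with no overlap of the groups.

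The type V chains join type I in the same fibrils and are needed to start them. Col5a1 had 369 and 362 CPM in saline and 141 and 151 CPM after treatment, so the libraries of each group lay close together and the groups lay far apart. Its log2 fold change of -1.32 had a standard error of 0.14 (adjusted p = 0.138). Col5a2 had 266 and 237 CPM in saline against 118 and 110 CPM after treatment, with a log2 fold change of -1.15 (SE 0.14, adjusted p = 0.138). The rarer chain Col5a3 had 30.8 and 30.1 CPM in saline, and 8.64 and 16.4 CPM after treatment. Both treated values were below saline but differed from each other 1.90-fold, and the log2 fold change was -1.28 (SE 0.32, adjusted p = 0.143).

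Col11a1, a type XI chain known from cartilage and also from the activated stroma of carcinomas, had the lowest treated level relative to saline. It was counted 166 and 123 times in the saline libraries and 13 and 14 times in the cmLumiOpto/PARPi libraries, or 10.4, 8.38, 0.748 and 0.842 CPM. The 95% exact Poisson intervals, which cover counting error only, were 142 to 193 and 102 to 147 counts in saline and 6.92 to 22.2 and 7.65 to 23.5 after treatment. Treated libraries thus kept 8.47% of the saline mean, a log2 fold change of -3.55 (SE 0.37, adjusted p = 0.138). Its partner chain Col11a2 was near the limit of detection, with 10 and 15 counts in saline and 23 and 10 after treatment. These were 0.627, 1.02, 1.32 and 0.602 CPM, the groups overlapped, and the log2 fold change of 0.23 had a standard error of 0.65 (adjusted p = 0.864). A difference in Col11a2 was not detectable at this depth.

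Col24a1 and Col27a1, with the shorter helices, were also low. Col24a1 had 24 and 23 counts in saline and 27 and 16 after treatment, which is 1.51, 1.57, 1.55 and 0.963 CPM. One treated library lay between the saline libraries, and the log2 fold change was -0.28 (SE 0.50, adjusted p = 0.771). Col27a1 had 56 and 49 counts in saline and 60 and 48 after treatment, or 3.51, 3.34, 3.45 and 2.89 CPM. Its groups overlapped as well, with a log2 fold change of -0.11 (SE 0.37, adjusted p = 0.887). With these standard errors neither gene can be said to be equal in the groups.

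**Figure D2:**
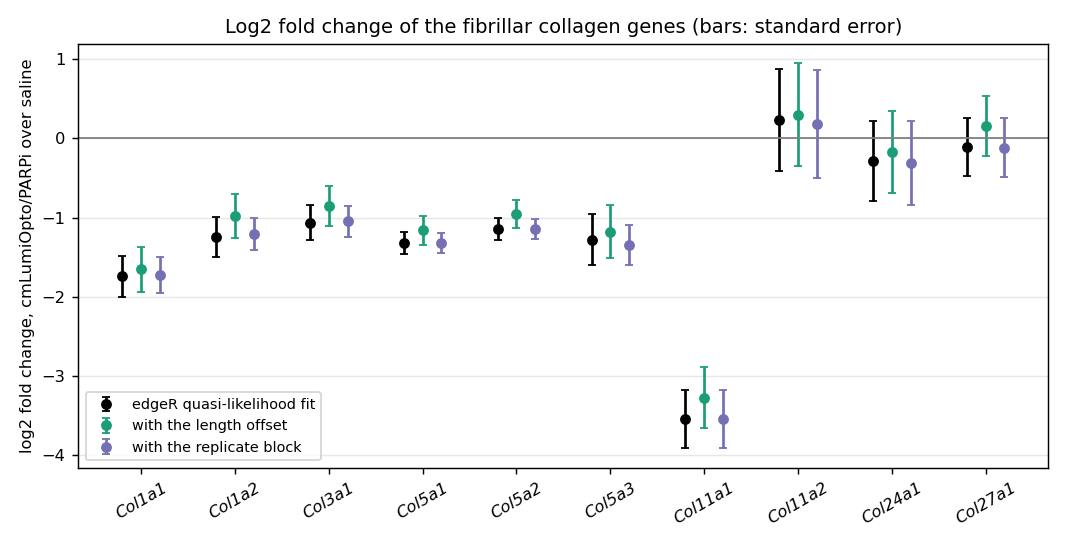
Log2 fold change, cmLumiOpto/PARPi over saline, of the 10 genes with bars of 1 standard error, from the edgeR quasi-likelihood fit and from the fits with a length offset or a replicate block. The 7 genes from Col1a1 to Col11a1 lie below 0 in each fit, and Col27a1 is at -0.11 without the length offset and at 0.16 with it.

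Gene length moved with the comparison. Across all tested genes the log2 fold change was related to the length given in the table (Spearman's rho = -0.373 across genes, which are not independent replicates), and the fibrillar collagen genes are long, at 6563 to 13022 bases. The 3151 tested genes in that range had a median log2 fold change of -0.22, against 0.02 for all tested genes and -1.20 for the 10 collagen genes. In that range 48.6% of the genes were lower in both treated libraries and 25.7% were lower at an unadjusted p under 0.05, while 3.30% had a log2 fold change below -1. With a length trend fitted in each library, the log2 fold change was -1.66 for Col1a1, -0.98 for Col1a2, -0.86 for Col3a1, -1.16 for Col5a1, -0.95 for Col5a2, -1.18 for Col5a3 and -3.28 for Col11a1. What gives rise to the length trend was not tested.

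Levels were compared between genes per kilobase of the length in the table. In saline the order of the group means ran from Col1a1 (262 CPM per kb) through Col3a1 (123), Col1a2 (81.5), Col5a1 (42.7), Col5a2 (26.3), Col5a3 (4.47), Col11a1 (0.737), Col27a1 (0.263) and Col24a1 (0.202) to Col11a2 (0.120). Neighbours in this order did not overlap between their pairs of saline libraries, but Col3a1 at 143 and 103 CPM per kb lay barely above Col1a2 at 101 and 62.4. This held for the length in the table only. Per kilobase of the longest coding transcript, Col3a1 at 253 and 182 CPM overlapped Col1a1 at 348 and 232 in saline. Col3a1 then also overlapped Col1a2, at 234 and 145. The counting intervals of Col24a1 overlapped both those of Col27a1 and those of Col11a2. After treatment Col1a1 remained first, at 78.2 CPM per kb, followed by Col3a1 at 59.0 and Col1a2 at 34.4. Col24a1 at 0.204 and 0.126 CPM per kb overlapped Col11a2 at 0.193 and 0.0875. Col11a1 was last at 0.0624 CPM per kb, below those chains that it exceeded in saline. In cmLumiOpto/PARPi replicate 2 its counting interval overlapped those of Col11a2 and Col24a1. Divided by the longest coding transcript instead, Col11a1 at 0.0976 and 0.110 CPM per kb lay barely below Col11a2 at 0.245 and 0.112. By that length the treated means were 104 CPM per kb for Col3a1, 86.6 for Col1a1 and 79.9 for Col1a2. The treated libraries of Col1a1, at 76.7 and 96.5, then overlapped those of Col3a1, at 96.2 and 112, and those of Col1a2, at 78.0 and 81.8. In the treated libraries Col3a1 lay above Col1a2 under both lengths. The table counts 9816 bases for Col3a1 and 6563 for Col1a1, and their longest coding transcripts have 5564 and 5930.

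Ratios between chains within a library do not depend on how libraries are scaled. Per length of the table, Col1a1 to Col1a2 was 3.13 and 3.36 in saline and 2.06 and 2.47 in cmLumiOpto/PARPi. Both treated libraries had less Col1a1 per Col1a2 than either saline library, by a factor of 0.699 between the means. Divided by the longest coding transcript, the same ratio was 1.49 and 1.60 in saline and 0.984 and 1.18 after treatment. Col3a1 to Col1a1 was 0.456 and 0.491 in saline and 0.787 and 0.728 after treatment, a factor of 1.60. For both ratios the exact two-sided permutation p was 0.333, the smallest possible here, and 0.444 after Benjamini-Hochberg adjustment over the 4 within-library quantities. The summed type V chains relative to the type I chains gave 0.182 and 0.263 in saline and 0.292 and 0.257 after treatment, and these groups overlapped (exact permutation p = 0.667).

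**Figure D3:**
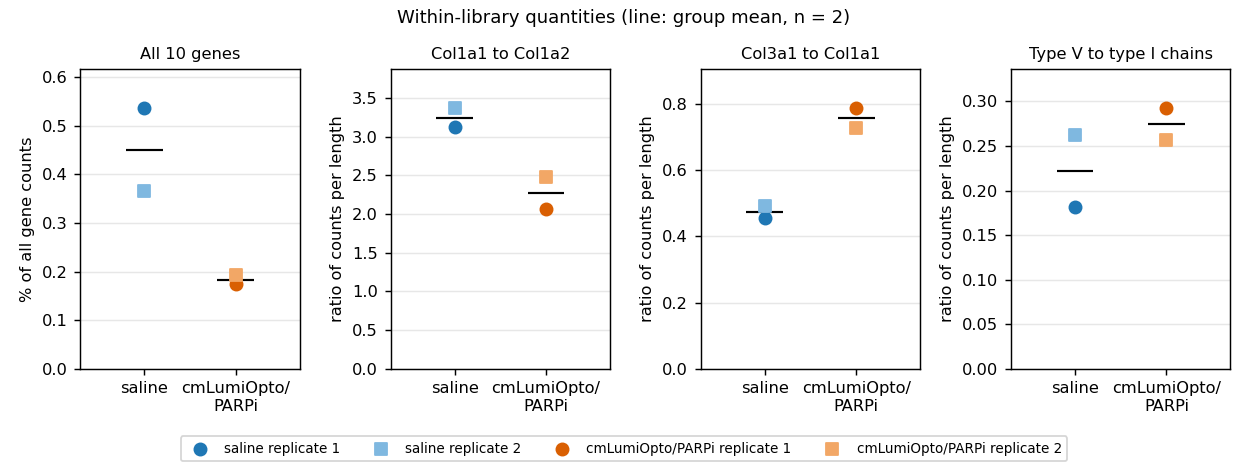
Share of all gene counts held by the 10 genes, in percent, and 3 ratios of counts per length, in each library, with a line at each group mean. The share and the ratio of Col1a1 to Col1a2 are lower in both treated libraries, the ratio of Col3a1 to Col1a1 is higher in both, and the ratio of type V to type I overlaps.

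Within the family, Col1a1 supplied 38.2% and 36.2% of the collagen counts in saline and 27.0% and 29.9% after treatment. Col3a1 supplied 26.3% on average in saline and 31.8% and 32.5% after treatment, and so had the larger count there. Col1a1, Col1a2 and Col3a1 together held 83.1% to 87.4% of the counts of the family in every library. Col11a1 supplied 0.193% and 0.220% in saline and 0.0445% and 0.0440% after treatment.

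The genes that act on procollagen and on fibrils were counted in 7 lists with 65 genes, of which 63 were tested. Of these, 40 had a negative and 23 a positive log2 fold change, and the median was -0.25 against 0.02 for all tested genes. In edgeR's quasi-likelihood test 0 of the 63 had an adjusted p under 0.05. Before adjustment 18 had a p under 0.05 and were lower and 5 higher, against 12% and 9.21% of all tested genes. The lists differed among themselves, as the plot of log2 fold changes by list shows.

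Enzymes that cross-link fibrils had the most negative median, -0.91 over 5 tested genes, 4 of them lower at an unadjusted p under 0.05. Lox, the founding lysyl oxidase, stood at 195 and 144 CPM in saline and at 74.0 and 82.6 CPM after treatment, with a log2 fold change of -1.12 (SE 0.19, adjusted p = 0.138). Loxl2 stood at 82.8 and 72.8 CPM against 32.9 and 44.2 CPM, with a log2 fold change of -1.01. Both thus had differences near those of Col3a1 and Col5a2. In the list of propeptide processing (median -0.59, 8 of 9 genes tested, Tll2 being listed at 0 in each library), 3 genes were lower and 1 higher at that p. With the length offset 1 was lower and 1 higher. Adamts2, which removes the amino-terminal propeptide, had 57.7 and 55.9 CPM in saline and 27.8 and 33.8 CPM after treatment. The protease Furin had a log2 fold change of -0.64, whereas Pcolce2, an enhancer of carboxy-terminal cleavage, had 0.66 and Pcolce 0.07.

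Enzymes that modify the chains act in the endoplasmic reticulum. In the hydroxylation and glycosylation list 0 of 15 tested genes had an unadjusted p under 0.05 and the median log2 fold change was -0.11. P3h1, a prolyl 3-hydroxylase, had 48.2 and 45.5 CPM in saline and 39.7 and 37.3 CPM after treatment. Plod1, a lysyl hydroxylase, had a log2 fold change of -0.27, Ppib, a prolyl isomerase, 0.24, and the galactosyltransferase gene Colgalt2 1.75 with a standard error of 1.28. For folding and secretion the median was -0.24, with 5 of 11 tested genes lower and 1 higher at an unadjusted p under 0.05. Fkbp10, a procollagen chaperone, had 49.7 and 36.0 CPM in saline and 22.3 and 24.1 CPM after treatment (log2 fold change -0.89). Of the genes of the COPII coat, which carries procollagen out of the endoplasmic reticulum, Sec23a had a log2 fold change of -0.62, Sar1b 0.48 and Sec13 0.12. Of the 6 COPII genes in the list, 3 were lower at an unadjusted p under 0.05 and 1 was higher. The others, named after their values were seen, were Sec24d (-0.63), Sec31a (-0.67) and Sar1a (-0.15).

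Small proteoglycans that coat fibrils spread in both directions, with a median of 0.19 over 8 tested genes and 1 gene in each direction at an unadjusted p under 0.05. Lum had 27.7 and 5.38 CPM in saline and 4.03 and 2.71 CPM after treatment, with saline replicate 1 far above the other 3 libraries and a log2 fold change of -2.29 (SE 0.76). Dcn had a log2 fold change of -0.53, Aspn 1.98 and Ogn 2.00, the last with overlapping groups. Among the genes of collagen breakdown and uptake (median -0.02, 8 tested), 3 were lower and 2 higher at that p. Mmp2, a gelatinase, had 180 and 118 CPM in saline and 35.3 and 54.3 CPM after treatment, a log2 fold change of -1.74 like that of Col1a1, and the membrane collagenase Mmp14 had -0.64. The collagenase Mmp13 had 10.4 and 6.34 CPM in saline and 22.1 and 19.6 CPM after treatment (log2 fold change 1.31), and Ctsk, the collagen-degrading cathepsin of osteoclasts, had 2.11. Of the collagen receptors (median -0.32, 8 of 9 tested, Gp6 not tested), 2 were lower and 0 higher at that p. With the length offset 0 were lower and 0 higher. The integrin gene Itga2 had a log2 fold change of -0.63, the receptor kinase gene Ddr2 -0.39 and the inhibitory receptor gene Lair1 0.33.

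**Figure D4:**
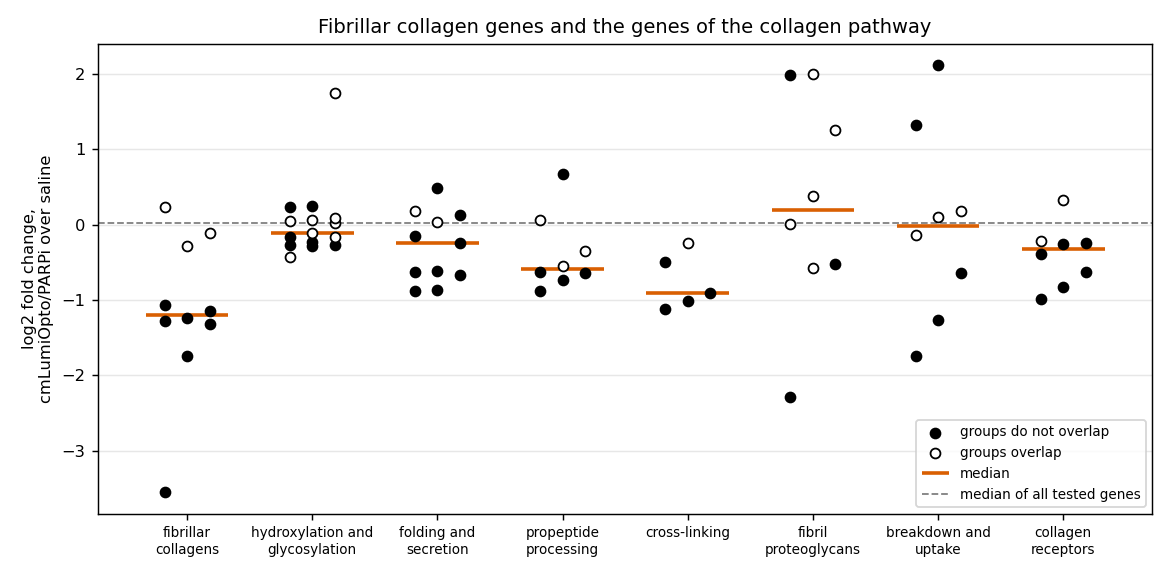
Log2 fold change, cmLumiOpto/PARPi over saline, of each tested gene of the fibrillar collagens and of the 7 pathway lists, with filled points where the groups do not overlap and a bar at the median. The medians run from -1.20 for the fibrillar collagens through -0.91 for cross-linking to 0.19 for the fibril proteoglycans, and the dashed line marks the median of all tested genes, 0.02.

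Markers of the stromal cells that are known to make collagen differed among themselves. The 10 markers of resident fibroblasts summed to 1087 and 1351 CPM in saline and to 1478 and 1151 CPM after treatment, and the groups overlapped, as they did for 3 of the 10 collagen genes. Of those markers 1 was lower and 5 were higher at an unadjusted p under 0.05. The 8 markers of activated fibroblasts summed to 5010 and 5848 CPM in saline and 5826 and 8353 CPM after treatment, most of it from Spp1. These sums overlapped, and 1 marker was lower and 0 higher at that p. Without Spp1, left out after the values were seen, the other 7 markers summed to 289 and 193 CPM in saline. After treatment they summed to 147 and 179 CPM, lower in both treated libraries. That lower sum rested on Tnc, with 183 and 125 CPM in saline and 56.2 and 80.6 CPM after treatment. Postn, the next in level, had 78.2 and 45.2 CPM against 68.3 and 77.2 CPM, and its groups overlapped. Of the 8 log2 fold changes 5 were negative, with a median of -0.36. For smooth muscle and pericytes, 10 markers summed to 296 and 333 CPM against 283 and 241 CPM, with 2 lower and 1 higher. Both treated sums lay below both saline sums, by less than the collagen genes did. The 2 lower markers, Acta2 (log2 fold change -0.42) and Pdgfrb (-0.68), had the highest levels of the 10. Of the 10 log2 fold changes 6 were positive, with a median of 0.03, so the lower sum did not reflect most of these markers. For cartilage cells, a known source of type XI and type XXVII chains, 3 of 12 markers were tested, and Acan, Matn1, Cnmd, Snorc and Col9a1 were at 0 in each library. The list summed to 70.9 and 76.0 CPM in saline and 63.7 and 57.2 CPM after treatment, with 1 marker lower and 1 higher. Sox9, a transcription factor that other cells also express, made up most of that sum. Without Sox9, likewise left out after the values were seen, the other 11 markers summed to 6.77 and 2.45 CPM in saline. After treatment they summed to 25.04 and 8.90 CPM, higher in both treated libraries. Most of that came from Matn4 and Cytl1, the only tested markers among them. Matn4 had 5.02 and 1.64 CPM against 15.1 and 3.73 CPM, with overlapping groups. Cytl1 had 1.00 and 0.136 CPM against 9.33 and 3.79 CPM. The part of these cells in the lower collagen levels was not tested.

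Other cells of the lung differed more, and their markers were detected in each library although the labels name tumour cells. The 8 airway markers summed to 1160 and 86.3 CPM in saline and to 5741 and 3073 CPM after treatment, and 8 of 8 were higher at an unadjusted p under 0.05. The 8 markers of alveolar type 2 cells summed to 1719 and 464 CPM against 8328 and 2973 CPM, with 7 higher and 0 lower at that p. Markers of tumour epithelium summed to 3014 and 3392 CPM in saline and 2698 and 3855 CPM after treatment, with 1 higher and 0 lower among the 8 of 10 that were tested. The sums overlapped also for 8 endothelial markers (526 and 431 CPM against 785 and 457 CPM, 2 higher) and for 10 leukocyte markers (668 and 377 CPM against 526 and 752 CPM, 0 past that p). None of these markers was at 0 in each library. Mitochondrial transcripts made up 1.13% and 1.17% of the counts in saline and 2.20% and 1.34% after treatment. The part of the airway and alveolar type 2 cells and of the mitochondrial share in the lower collagen levels was not tested.

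**Figure D5:**
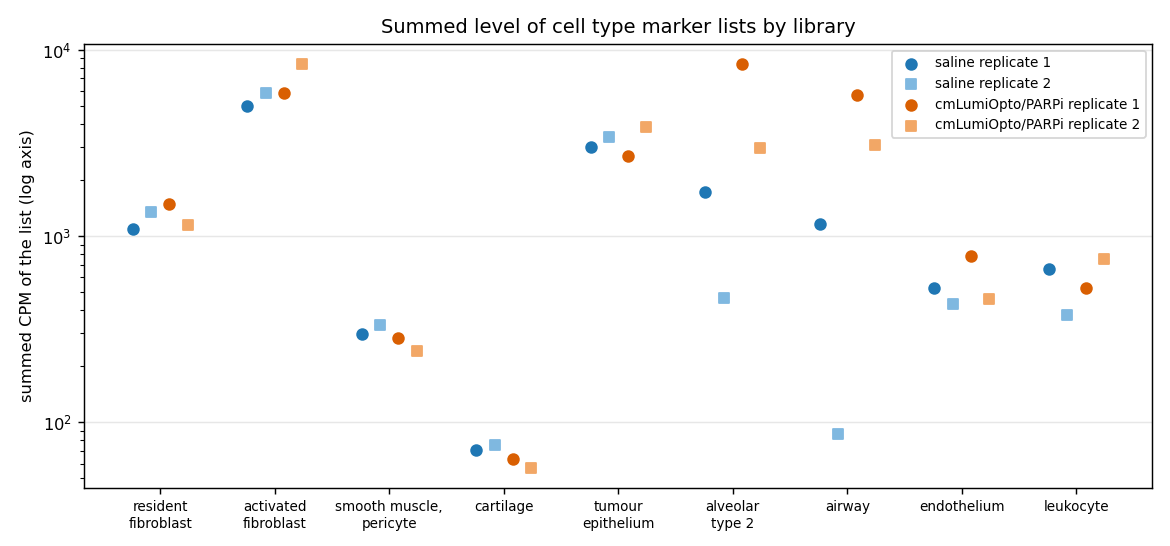
Summed CPM of each cell type marker list in each library, on a log axis. The treated libraries lie above both saline libraries for airway and alveolar type 2 markers. The groups overlap for resident fibroblasts, activated fibroblasts, tumour epithelium, endothelium and leukocytes.

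The genes whose profile lay nearest to the mean profile of the 10 collagen genes were sought among 10493 tested genes with a mean log2 CPM of 3 or more. Likeness was the root mean square difference of centred log2 CPM over the 4 libraries. Stra6, a retinol transporter, was nearest at 0.0629, followed by Hipk2, a nuclear kinase, at 0.0649 and Slc38a4, an amino acid transporter, at 0.0667. Pde7b, a phosphodiesterase, followed at 0.0976 and Zfp516, a zinc finger gene, at 0.103. Stra6 stood at 183 and 158 CPM in saline and 81.5 and 71.3 CPM after treatment, close to the profile of Col5a2. The list is a description.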

How the data were processed

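Per the submitters' processing notes, reads were mapped with HISAT2 and the notes name the build mm39, while the study's methods name GRCm38. The authors deposited raw read counts per gene for 4 libraries, without normalization, with the position, length and type of each gene. The counter, its strand setting and its version are not given in the sources used here. By Ensembl identifier, 52073 of the 56748 genes were found in GENCODE M21 (GRCm38). Of these, 96.8% had the same span as in the table, but only 2.76% had the same position. The positions of most genes in the table were thus not those of GRCm38. Gene coordinates given here are those of M21.

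Counts were tested in R 4.3.3 with edgeR 4.0.16 (TMM, filterByExpr at min.count 10, then glmQLFit and glmQLFTest at their defaults, Benjamini-Hochberg adjustment over 15167 genes, threshold 0.05). Single values were tested by exact permutation (scipy 1.17.1). Log2 CPM used a prior count of 2. Alternatives were DESeq2 1.42.0, RLE, upper-quartile and no scaling, no count filter, the option legacy = FALSE, a length offset (loess of log2 CPM deviations on log2 length per library, span 0.5), the replicate number as a block, and leaving out each library. Scripts were tested on simulated data.

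The 10 genes, the pathway lists and the marker lists were chosen with earlier results of these data known. From each pathway list up to 2 higher and 2 lower genes with the smallest unadjusted p were named, and the 5 genes nearest in profile. Totals of 15263375 to 16755228 counts set the precision. The libraries of a group differed beyond counting noise (chi-square per degree of freedom 25.2 in saline and 45.4 in cmLumiOpto/PARPi), and each was counted as 1 replicate. The labels do not say that they come from separate mice, so p-values measure the spread between these libraries, which may be technical.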

Additional observations from a re-analysis of the deposited data

How the results depend on the processing

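The 7 genes lower in both treated libraries had a negative log2 fold change in 91 of 91 alternative fits. These fits reuse the same libraries, and genes picked for groups that do not overlap can hardly change sign in them. The count is therefore no independent support. The number of fibrillar collagen genes past an adjusted p of 0.05, which was 0 in the edgeR quasi-likelihood fit, was 7 without the filter on low counts, 7 with the DESeq2 Wald test, 7 with the replicate block and 7 with the length offset and replicate block. It was 0 with the other scalings, with legacy = FALSE, with the length offset alone and without any one library. Over all genes, 2000, 929, 1822 and 1234 genes passed under those 4 settings, against 0. The cause of these moves was not tested. Without 1 library, the adjusted p of the 7 genes lay between 0.0583 and 0.419.

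Libraries with the same replicate number deviated together over all tested genes (Spearman's rho across genes = 0.298). No source ties them to a shared mouse or day and there are 2 pairs, so the pairing is only a shared number. Of the 7 genes lower after treatment, only Col5a2 had replicate 1 higher in both groups. In the others replicate 1 was higher in saline and replicate 2 after treatment, so same-numbered libraries deviated in opposite directions. With the replicate block the adjusted p was 0.0112 for Col1a1, 0.0174 for Col1a2, 0.0221 for Col3a1, 0.00437 for Col5a1, 0.00601 for Col5a2, 0.0230 for Col5a3 and 0.00584 for Col11a1.

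Signs turned in the low genes. The log2 fold change of Col11a2 was -0.10 without saline replicate 1 and -0.45 without cmLumiOpto/PARPi replicate 1, against 0.23, and at most 0.66 without any other library. That of Col27a1 was 0.16 with the length offset and 0.16 with the length offset and replicate block, against -0.11. Without 1 library, the ratio of treated to saline ranged from 0.343 to 0.501 for the share of counts, from 0.636 to 0.762 for Col1a1 to Col1a2, from 1.54 to 1.66 for Col3a1 to Col1a1 and from 1.05 to 1.51 for type V to type I. Upper-quartile scaling moved the median log2 fold change of all tested genes from 0.02 to 0.13. With the length offset, the count of genes lower at an unadjusted p under 0.05 moved in some pathway lists. It was 0 against 2 for collagen receptors, 1 against 3 for propeptide processing and 4 against 5 for folding and secretion. For hydroxylation and glycosylation it was 1 against 0. It stayed at 4 for cross-linking, 3 for breakdown and uptake and 1 for fibril proteoglycans. At 10 to 27 counts per library, Col11a2 and Col24a1 are limited by depth, and so is Col11a1 after treatment, at 13 and 14 counts.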

Other observations

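The spread between libraries of one group was not the same for all fibrillar collagen genes. Between the saline libraries, replicate 1 was higher 1.50-fold for Col1a1, 1.61-fold for Col1a2 and 1.39-fold for Col3a1, the chains of the bulk fibrils. The same libraries differed by 1.02-fold for Col5a1, 1.12-fold for Col5a2 and 1.02-fold for Col5a3, the type V chains. Between the cmLumiOpto/PARPi libraries the ratio was 1.26 for Col1a1, 1.05 for Col1a2 and 1.16 for Col3a1, each with replicate 2 higher. For the type V chains it was 1.07 for Col5a1 and 1.90 for Col5a3, with replicate 2 higher. It was 1.08 for Col5a2, with replicate 1 higher. These are values of 2 libraries per group, and the differences in spread were not tested.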
